A study of Mus musculus with 11 samples.

Results

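The genes described here are 41 mouse genes of glycolysis and of the response to hypoxia-inducible factor (HIF), taken from a list and found on the array through the RefSeq accession of each probe. They had 71 probes, of which 69 passed a filter on dim signal, and 40 of the 41 genes were tested among 25082 genes or unnamed features in all. Of the 41, 20 encode glycolytic enzymes, transporters and enzymes that steer glucose and lactate flux, and 21 are other HIF genes, grouped by role as oxygen sensors, mitochondrial proteins, secreted factors, proteins of the endoplasmic reticulum and pH control, and transcriptional or other regulators. The gene that could not be tested was Mxi1, a MYC antagonist, whose signal cleared background on just 1 of the 11 arrays.

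HIF is a pair of proteins, an oxygen-labile alpha subunit (HIF-1 alpha from Hif1a, or HIF-2 alpha from Epas1) and a stable beta subunit (ARNT). Prolyl hydroxylases of the Egln family use oxygen to mark the alpha subunit for destruction, so that when oxygen is short the pair accumulates, binds a short DNA core in promoters and enhancers, and raises transcription of glycolytic enzymes, glucose and lactate transporters, and genes that limit mitochondrial work. In myeloid cells glycolysis carries much of the energy supply, and HIF-1 is well known as a regulator of their metabolism.

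Transcripts were measured on 11 Agilent arrays of L-GMP cells, leukaemic granulocyte-macrophage progenitors of the mouse that carry the oncogene MLL-AF9. All cells were on a C57BL/6 background, carried floxed Kdm4a, Kdm4b and Kdm4c (labelled Jmjd2a, Jmjd2b and Jmjd2c), which encode histone lysine demethylases, and expressed a tamoxifen-inducible Cre recombinase (CreERT2) from the Rosa26 locus. The study derived 4 such cell lines from leukaemic mice and cultured them in RPMI with 20% serum and IL-3 at 10 ng/ml. The groups were cells before 4-hydroxytamoxifen (0 h, 4 arrays) and cells exposed to 500 nM of it for 48 h (4 arrays) or 96 h (3 arrays), so the question the comparisons address is what changes after the 3 demethylase genes are deleted. Treated cells without floxed alleles were not analysed here, so loss of the 3 genes, the drug, the recombinase and time in culture cannot be told apart. No label says which cell line an array came from, so p-values measure the spread between these samples, which may be partly technical. The 0 h and 48 h arrays shared 1 slide and the 96 h arrays lay on slide 2, so slide and 96 h cannot be told apart, whereas 48 h against 0 h is a comparison within 1 slide.

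Values are scaled log2 signals, meaning log2 of the spot's processed signal minus the array's own 75th percentile. They compare arrays for 1 probe and do not rank different probes. The 75th percentile itself differed by group without overlap: 149 to 204 at 0 h, 108 to 147 at 48 h and 229 to 294 at 96 h. The part of this difference in the results was not tested, and values with other scalings are given below. Between 50.2% and 75.8% of the spots were well above background, and the number of arrays limits the precision. The floxed genes were lower at both later times. In the order 0 h, 48 h and 96 h, the mean of Kdm4a was 3.75, 2.16 and 2.55, that of Kdm4b 1.53, -1.77 and -1.72, and that of Kdm4c 0.93, -4.02 and -3.66. All 8 progenitor markers checked were well above background on all arrays. Their summed linear scaled signal was 867 to 1130 at 0 h, 1310 to 1400 at 48 h and 1220 to 1290 at 96 h, and 2 of them, the granule peroxidase Mpo (4.33 at 48 h, 5.18 at 96 h) and Ms4a3 (1.74 and 1.88), were higher than at 0 h at both times. The part of these markers in the results at 48 h was not tested. Among markers of other cells, the summed linear scaled signal of the 5 measured neutrophil genes was 18.2 to 166 at 0 h, 63.2 to 230 at 48 h and 306 to 805 at 96 h. Of the 5, 3 were higher at 96 h than at 0 h. The lymphoid sum was 5.22 to 6.17, 6.18 to 8.19 and 3.74 to 4.53 at 0 h, 48 h and 96 h, without overlap between times. In the same order, the macrophage sum was 16.8 to 36.1, 24.9 to 28.7 and 18 to 22.8. The erythroid sum was 0.353 to 0.475, 0.428 to 0.765 and 0.427 to 0.543. The stromal and endothelial sum was 1.41 to 1.73, 1.38 to 1.48 and 1.53 to 1.67. Cd3e (lymphoid) was called lower at 96 h than at both other times. Epor (erythroid) was called higher than at 0 h at both later times. The part of these lists in the results was not tested. Mrc1 (macrophage), Hbb-b1 (erythroid) and Cdh5 (endothelial) were above background on no array.

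At 48 h most of the genes were higher than at 0 h, and the mitochondrial HIF targets, the glycolytic enzymes and the lactate branch took part together. Of the 40 tested, 23 rose, 6 fell and 11 did not pass the test (limma, Benjamini-Hochberg adjusted p under 0.05 over all genes). This is 57.5% higher and 15% lower, where 10.5% and 8.02% of all genes tested rose and fell, 18.6% in all. The median log2 difference was 0.50 over the members and 0.12 over all genes. The 0 h and 48 h arrays did not overlap for 23 members in the upward and 6 in the downward direction (14.1% and 9.82% of all genes, 23.9% together). Among the 10 called members with the greatest differences in size, 8 rose (Ankrd37, Car9, Ak4, Aldoc, Egln3, Bnip3, Fam162a and Tpi1) and 2 fell (Ero1a and Ndrg1). In bulk RNA, a change in the share of cells of a type and a change of RNA per cell cannot be told apart.

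**Figure D1:**
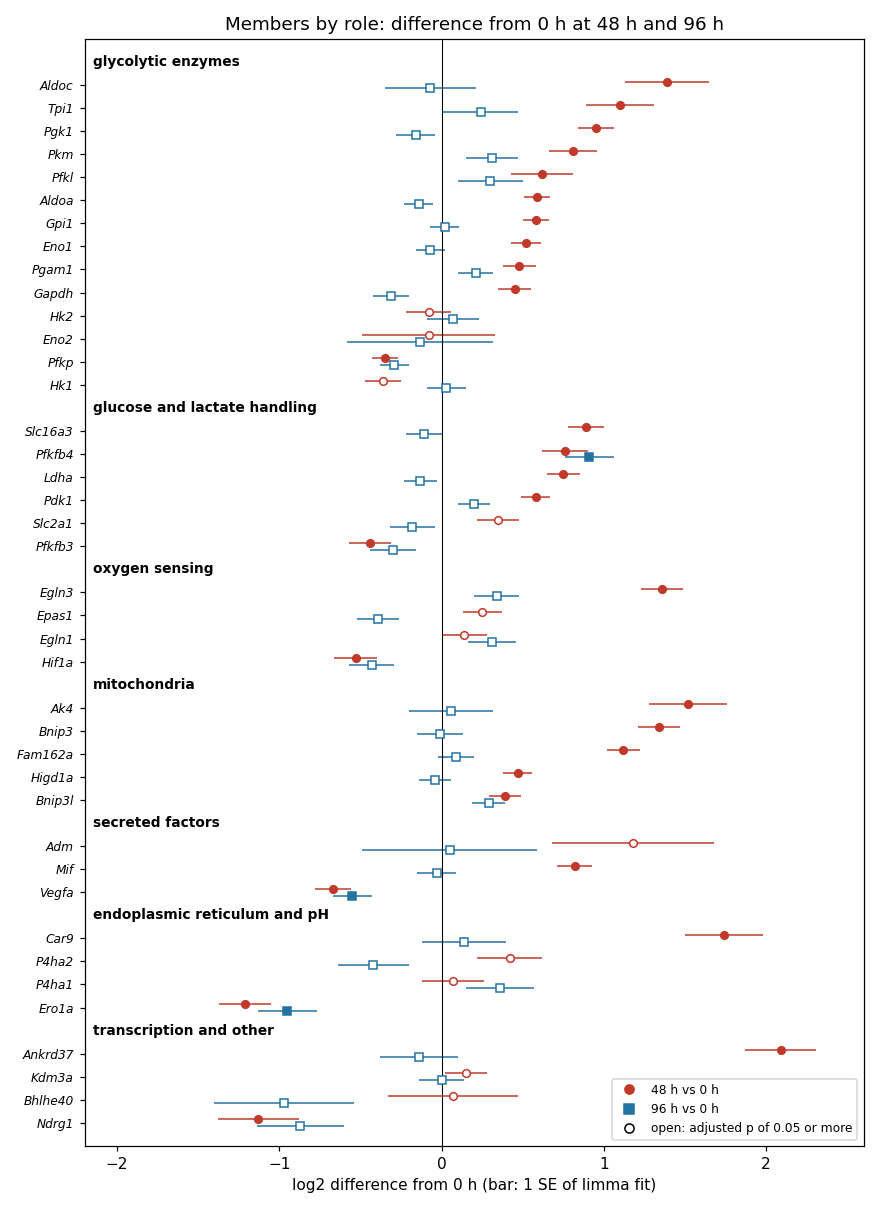
Log2 difference from 0 h for each of the 40 tested genes, grouped by role, at 48 h (red circles) and 96 h (blue squares), with bars of 1 SE and open symbols where the adjusted p was 0.05 or more. Most 48 h symbols lie right of 0, up to 2.09 for Ankrd37, most 96 h symbols lie close to 0, and Ero1a, Ndrg1 and Vegfa lie left of 0 at both times.

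The promoters of several of these genes are shown because Bnip3, Pgk1, Ankrd37, Egln3, Slc16a3 and Ldha, all textbook HIF targets, rose together, and because Ero1a, which fell, carries the same letters. Each window holds 250 bases before and 50 bases after a RefSeq transcript start (RefSeq, build GRCm38.p6), 5′ to 3′ on the strand of the gene, and a window could be matched for 37 of the 41 genes. Bnip3l, Epas1, Bhlhe40 and Ndrg1 had no entry. Capitals mark the HIF core letters searched, ACGTG or GCGTG, on either strand (so also CACGT and CACGC), and overlapping matches run together. The windows lie at chr7:138909457-138909756 on the minus strand (Bnip3), chrX:106186850-106187149 plus (Pgk1), chr8:45999801-46000100 minus (Ankrd37), chr12:54203825-54204124 minus (Egln3), chr11:120948817-120949116 plus (Slc16a3), chr7:46845554-46845853 plus (Ldha) and chr14:45318523-45318822 minus (Ero1a).
Bnip3: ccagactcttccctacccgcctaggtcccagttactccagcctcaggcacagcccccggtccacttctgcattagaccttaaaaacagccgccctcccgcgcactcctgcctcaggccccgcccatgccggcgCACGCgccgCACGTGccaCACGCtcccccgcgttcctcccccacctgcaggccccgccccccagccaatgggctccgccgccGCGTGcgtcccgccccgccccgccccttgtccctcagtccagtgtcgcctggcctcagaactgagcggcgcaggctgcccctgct
Pgk1: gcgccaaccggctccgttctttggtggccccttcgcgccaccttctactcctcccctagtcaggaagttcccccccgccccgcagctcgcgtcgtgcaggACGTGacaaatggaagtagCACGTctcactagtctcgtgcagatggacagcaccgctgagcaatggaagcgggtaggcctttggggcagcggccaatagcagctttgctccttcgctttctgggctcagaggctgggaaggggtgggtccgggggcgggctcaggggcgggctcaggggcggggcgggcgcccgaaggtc
Ankrd37: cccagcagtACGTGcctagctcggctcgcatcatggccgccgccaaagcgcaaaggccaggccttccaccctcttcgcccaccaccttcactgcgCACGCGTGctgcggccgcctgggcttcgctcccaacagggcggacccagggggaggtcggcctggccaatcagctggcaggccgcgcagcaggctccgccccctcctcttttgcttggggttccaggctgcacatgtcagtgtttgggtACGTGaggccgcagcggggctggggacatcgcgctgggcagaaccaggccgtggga
Egln3: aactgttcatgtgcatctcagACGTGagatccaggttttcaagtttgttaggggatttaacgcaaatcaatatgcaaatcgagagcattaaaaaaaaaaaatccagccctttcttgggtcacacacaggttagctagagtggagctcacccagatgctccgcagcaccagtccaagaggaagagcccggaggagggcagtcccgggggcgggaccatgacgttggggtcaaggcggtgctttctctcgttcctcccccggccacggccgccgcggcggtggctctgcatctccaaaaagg
Slc16a3: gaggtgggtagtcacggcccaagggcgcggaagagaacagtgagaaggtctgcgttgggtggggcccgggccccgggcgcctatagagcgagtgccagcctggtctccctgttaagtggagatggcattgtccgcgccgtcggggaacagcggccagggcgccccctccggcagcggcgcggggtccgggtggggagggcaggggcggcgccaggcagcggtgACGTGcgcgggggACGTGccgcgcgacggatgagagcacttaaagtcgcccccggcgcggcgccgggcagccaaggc
Ldha: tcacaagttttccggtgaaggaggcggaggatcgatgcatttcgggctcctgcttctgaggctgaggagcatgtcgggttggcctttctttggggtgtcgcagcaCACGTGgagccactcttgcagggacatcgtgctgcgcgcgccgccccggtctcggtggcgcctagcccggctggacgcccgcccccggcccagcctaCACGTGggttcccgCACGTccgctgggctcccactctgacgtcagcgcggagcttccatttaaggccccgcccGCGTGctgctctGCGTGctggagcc
Ero1a: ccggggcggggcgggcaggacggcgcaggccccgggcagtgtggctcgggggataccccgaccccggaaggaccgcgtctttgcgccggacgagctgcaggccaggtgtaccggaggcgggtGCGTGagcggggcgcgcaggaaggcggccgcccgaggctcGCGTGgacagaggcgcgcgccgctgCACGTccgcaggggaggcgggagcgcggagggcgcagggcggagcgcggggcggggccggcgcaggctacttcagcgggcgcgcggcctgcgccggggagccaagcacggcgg

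ACGTG stood on either strand in 30 of the 55 windows of the 37 genes (54.5%), against 19.6% of 32851 mouse promoter windows of the same length and 26.5% of the 9690 windows with at least 60% G and C. The members' windows were G and C rich, with a median of 64.7% against 52.7%. GCGTG, which is common wherever G and C are, was in 56.4% of the members' windows, 32.4% of all windows and 59.2% of the G and C rich ones. At least 2 separate ACGTG sites were present in 9 windows (16.4%, against 2.69% of all and 4.43% of the rich ones). Of these 9 windows, 5 belong to genes that rose: Ldha with 3 sites, and Pgk1 (first bases 150 and 131 before the start), Slc16a3 (27 and 14 before), Ankrd37 (241 and 6 before) and Pkm with 2 each. The others, with 2 sites each, belong to Hif1a, which fell, and to Hk1, Hk2 and P4ha2, which were not called. By direction this is 15.2% of the windows of genes that rose, 14.3% of those that fell and 25% of those not called. The E-box CACGTG, which contains ACGTG on both strands, was in 5 windows (9.09%, against 7.15% of all and 10.8% of the rich ones). ACGTG was in 17 of 33 windows of genes that rose at 48 h (51.5%), 5 of 7 of genes that fell (71.4%) and 6 of 12 of genes not called (50%). By gene, this was 16 of 22, 4 of 5 and 6 of 9, beside 5886 of 27025 genes over all promoters. The windows of Gpi1 and Tpi1, which rose, held neither ACGTG nor GCGTG. These are matches of letters, and binding was not measured. The genes were listed as glycolysis and HIF genes, so their excess over all promoters is not a result of the arrays.

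The glycolytic enzymes were read in pathway order. Of 14 enzymes, 10 rose at 48 h, 1 fell and 3 were not called, with a median difference of 0.55. The hexokinases, which trap glucose in the cell, were not among the risers: Hk1 differed by -0.36 (adjusted p = 0.0513) and Hk2 by -0.08. Gpi1, which converts glucose 6-phosphate to fructose 6-phosphate, rose by 0.58 (adjusted p = 0.00321), and its 3 probes all rose (0.58 to 0.66). At phosphofructokinase, the committing step, the isoforms moved apart. Pfkl, the liver-type subunit, rose by 0.62 (adjusted p = 0.0439), whereas Pfkp, the platelet-type subunit, fell by 0.35 on the log2 scale (adjusted p = 0.0154). The call for Pfkl was lost without any 1 array other than 0 h replicate 2 or 96 h replicate 3 (adjusted p from 0.0522 to 0.113), and a dimmer Pfkp probe differed by 0.06.

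The aldolases split fructose bisphosphate, and the brain-type isoform showed the greatest rise among the enzymes. Aldoc read 3.98, 4.71, 4.40 and 4.03 on the 0 h arrays, 5.58, 6.35, 5.34 and 5.39 at 48 h, and 3.83, 4.48 and 4.31 at 96 h. The 48 h arrays stood above all arrays of the other times, which overlapped each other. The rise was 1.39 (SE 0.26, 2.62-fold, adjusted p = 0.00777). The muscle-type isoform Aldoa rose by 0.59 (adjusted p = 0.00269). Tpi1, triosephosphate isomerase, read 6.03, 6.98, 6.08 and 5.98 at 0 h, 7.29, 7.68, 7.26 and 7.23 at 48 h, and 6.48, 6.41 and 6.65 at 96 h. Its second 0 h array was well above the other 0 h arrays, yet still below every 48 h array. The rise was 1.1 (SE 0.21, 2.14-fold, adjusted p = 0.00963).

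The payoff steps of glycolysis rose too. Pgk1, phosphoglycerate kinase and a long-studied HIF target, read 7.28, 7.48, 7.39 and 7.27 at 0 h, 8.47, 8.48, 8.17 and 8.11 at 48 h, and 7.29, 7.08 and 7.19 at 96 h. The 48 h arrays lay apart from all others, and the rise was 0.95 (SE 0.11, 1.94-fold, adjusted p = 0.00198). Gapdh, often used as a reference gene, rose by 0.45 by its brightest probe (adjusted p = 0.0144). All 7 Gapdh probes had positive differences (0.37 to 0.53), and 3 of the 7 were called. Pgam1, phosphoglycerate mutase, rose by 0.48 (adjusted p = 0.0133), Eno1, the common enolase, by 0.52 (adjusted p = 0.00526), and Pkm, pyruvate kinase of non-liver tissues, by 0.81 (adjusted p = 0.00784). Eno2, the neuronal enolase, was well above background on 1 of 4 arrays at 0 h, 1 of 4 at 48 h and 2 of 3 at 96 h and was not called. With quantile normalization in place of the percentile, the 48 h differences of Aldoa (0.33, adjusted p = 0.0754), Gapdh (0.18, 0.171) and Pgam1 (0.30, 0.0977) were smaller and not called, as was that of Eno1 in the authors' deposited table values (0.26, 0.0508). Many of these genes have processed pseudogenes of near-identical sequence, so probes may also read other transcripts.

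**Figure D2:**
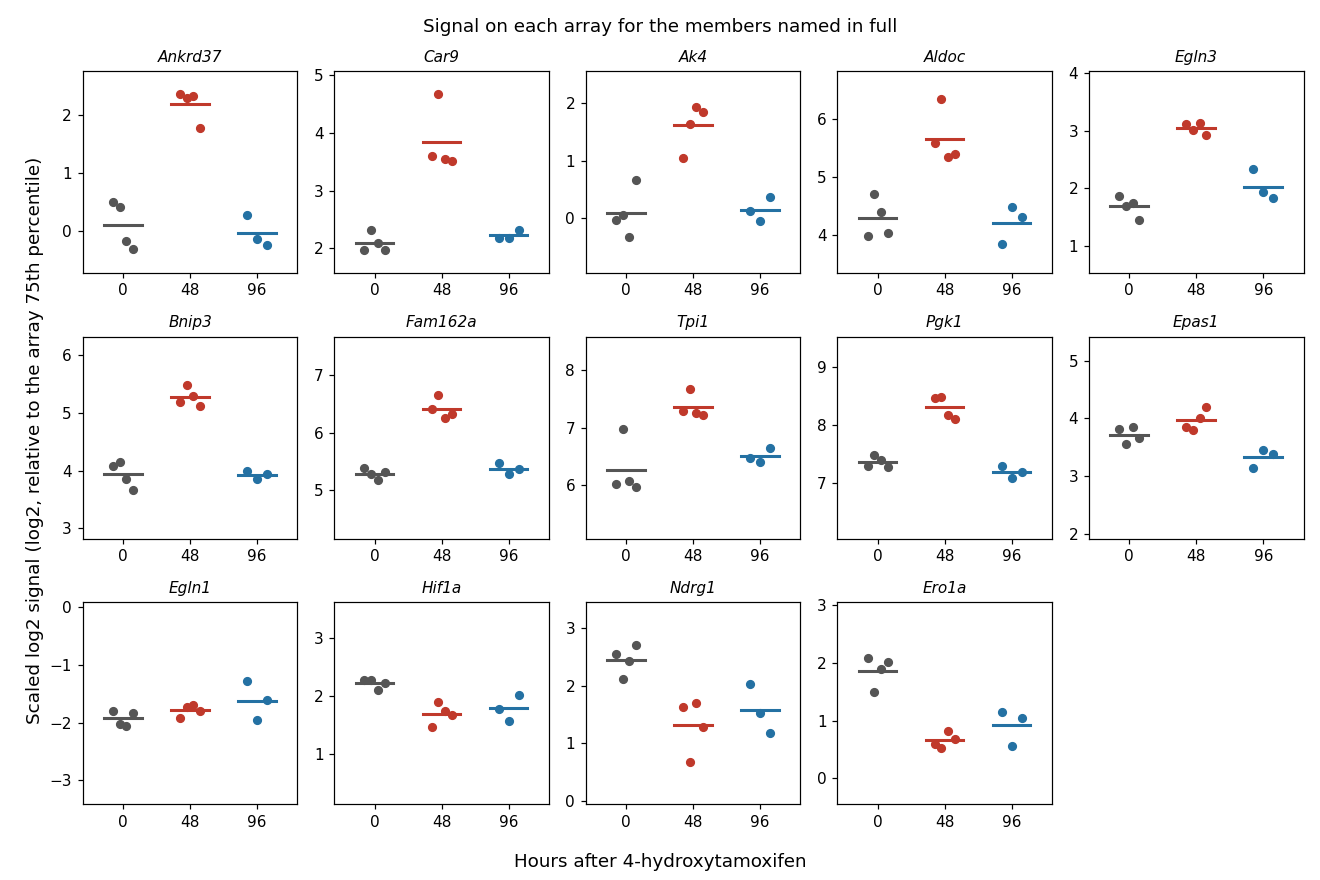
Scaled log2 signal on each array for 14 genes, with 0 h, 48 h and 96 h side by side, a horizontal bar at each group mean, and every panel spanning 3.5 log2 units. Ankrd37, Car9, Ak4, Aldoc, Egln3, Bnip3, Fam162a, Tpi1 and Pgk1 show 48 h arrays above both other times, and Ero1a and Ndrg1 show 48 h arrays below 0 h.

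Genes that steer glucose and lactate moved mostly upward, with 4 of 6 higher, 1 lower and 1 not called at 48 h (median 0.66). Ldha, the lactate dehydrogenase subunit that favours lactate production, rose by 0.75 (SE 0.10, 1.68-fold, adjusted p = 0.00222), and all 3 of its probes rose, by 0.75 to 1.11. Slc16a3, the lactate exporter MCT4, rose by 0.89 (SE 0.11, 1.85-fold, adjusted p = 0.00198), with both of its probes called. Pdk1, a kinase that inhibits pyruvate dehydrogenase, rose by 0.58 (adjusted p = 0.00422). The glucose transporter Slc2a1 (GLUT1) differed by 0.35 (adjusted p = 0.0752) and was not called.

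The bifunctional enzymes that set the level of the sugar phosphate that activates phosphofructokinase moved in opposite directions. Pfkfb4 read 0.34 to 0.94 at 0 h, 1.2 to 1.4 at 48 h and 1.35 to 1.69 at 96 h. Its 48 h and 96 h arrays overlapped each other and lay above all 0 h arrays. It rose by 0.76 at 48 h (adjusted p = 0.00828) and by 0.91 at 96 h (SE 0.15, 1.88-fold, adjusted p = 0.0121), and was the only member whose brightest probe was called higher at both times. Its 96 h call was lost with median scaling (0.53, adjusted p = 0.146) and in a fit of only the 2 groups (0.053), and its 48 h call with median scaling (0.137). Pfkfb3, known as a hypoxia-induced isoform, fell by 0.44 on the log2 scale (adjusted p = 0.0434). The 0 h and 48 h arrays of Pfkfb3 overlapped, and its dimmer probe differed by 0.30. The call was lost with the replicate number as a block (adjusted p = 0.0508) and without any 1 array other than 0 h replicate 2 (0.0534 to 0.115).

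Among the oxygen sensing genes, Egln3 rose, Egln1 was not called and the HIF-1 alpha transcript fell at 48 h. Egln3, the prolyl hydroxylase PHD3, read 1.87, 1.70, 1.74 and 1.45 at 0 h, 3.12, 3.02, 3.13 and 2.93 at 48 h, and 2.33, 1.94 and 1.83 at 96 h. The 48 h arrays were above all others, a rise of 1.36 (SE 0.13, 2.56-fold, adjusted p = 0.00126). Egln1, the main oxygen sensor PHD2, read -1.79, -2.03, -2.05 and -1.83 at 0 h, -1.92, -1.73, -1.70 and -1.79 at 48 h, and -1.28, -1.96 and -1.61 at 96 h. Its groups overlapped, and the 48 h difference of 0.14 was not called (adjusted p = 0.521). Hif1a read 2.28, 2.27, 2.11 and 2.23 at 0 h, 1.46, 1.90, 1.73 and 1.67 at 48 h, and 1.78, 1.56 and 2.02 at 96 h. Every treated array was below every 0 h array. The 48 h fall was -0.53 (SE 0.13, adjusted p = 0.0191), and it was not called without 48 h replicate 1 (0.0517) or 48 h replicate 4 (0.0518). At 96 h the Hif1a difference from 0 h was -0.43 (adjusted p = 0.0719). HIF protein, which is set mainly by its degradation, was not measured.

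Epas1, which encodes HIF-2 alpha, read 3.81, 3.55, 3.84 and 3.65 at 0 h, 3.85, 3.80, 4.01 and 4.2 at 48 h, and 3.13, 3.45 and 3.38 at 96 h by its brightest probe. The 0 h and 48 h arrays overlapped (difference 0.25, adjusted p = 0.17), and the 96 h arrays were below all others. Its other two probes, both dimmer, gave other values. They differed by 1.26 (adjusted p = 0.0229 over all probes) and 0.77 (0.112) at 48 h, and by 1.09 (0.0695) and 1.44 (0.0321) at 96 h against 0 h. All 3 Epas1 probes thus had positive differences at 48 h, whereas in the comparisons with 96 h the direction depended on the probe. Averaged over its probes, Epas1 was called higher at 48 h (0.76, limma adjusted p = 0.0243). That average was not called between 48 h and 96 h (-0.05, 0.905).

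All 5 mitochondrial HIF genes rose at 48 h, with a median of 1.12. Bnip3, which marks mitochondria for removal by autophagy, read 4.08, 4.16, 3.86 and 3.66 at 0 h, 5.20, 5.49, 5.30 and 5.12 at 48 h, and 4.00, 3.85 and 3.95 at 96 h. The 48 h arrays stood apart and the 96 h arrays fell within the 0 h range. The rise was 1.34 (SE 0.13, 2.53-fold, adjusted p = 0.00122), and its 3 probes all rose, by 1.34 to 1.68. Ak4, a mitochondrial adenylate kinase, read -0.03, 0.06, -0.32 and 0.67 at 0 h, 1.05, 1.63, 1.94 and 1.85 at 48 h, and 0.13, -0.05 and 0.38 at 96 h. Despite the wide spread at 0 h, no 48 h array overlapped either other group, and the rise was 1.52 (SE 0.24, 2.87-fold, adjusted p = 0.00467). Fam162a, a hypoxia-induced mitochondrial protein, read 5.38, 5.29, 5.18 and 5.31 at 0 h, 6.41, 6.65, 6.26 and 6.32 at 48 h, and 5.47, 5.29 and 5.37 at 96 h. The 48 h arrays were above all others, and the rise was 1.12 (SE 0.10, 2.17-fold, adjusted p = 0.00105). Higd1a, an inner membrane protein of the respiratory chain, rose by 0.47 (adjusted p = 0.00837), and Bnip3l, a relative of Bnip3, by 0.39 (adjusted p = 0.022). Of its 4 probes, 1 was called higher at both times, at 48 h (0.35, adjusted p = 0.0303 over all probes) and at 96 h (0.39, 0.0409). The Bnip3l call was lost without 0 h replicate 1 (0.0537), 48 h replicate 1 (0.0514) or 48 h replicate 2 (0.05).

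Of the 3 secreted factors, Mif rose, Vegfa fell by its brightest probe and Adm was not called. Mif, a macrophage cytokine, rose by 0.82 (SE 0.11, 1.77-fold, adjusted p = 0.00266), and its 3 probes rose by 0.82 to 0.85. Vegfa, the angiogenic growth factor, read 2.49 to 2.80 at 0 h, 1.82 to 2.11 at 48 h and 1.99 to 2.26 at 96 h. Both treated groups lay below the 0 h arrays, and the differences were -0.67 at 48 h (adjusted p = 0.00467) and -0.55 at 96 h (adjusted p = 0.0228). A second Vegfa probe, assigned to another RefSeq transcript, read 0.90 to 1.49 at 0 h, 1.58 to 1.74 at 48 h and 0.70 to 1.06 at 96 h. It lay higher at 48 h without overlap, by 0.42 (adjusted p = 0.0678 over all probes, not called), and fell between 48 h and 96 h by 0.71 on the log2 scale (adjusted p = 0.0206 over all probes). Averaged over both probes, Vegfa differed by -0.13 at 48 h and was not called. Adm, the vasodilator adrenomedullin, differed by 1.18 (adjusted p = 0.128), with 48 h replicate 2 at -0.72 and the other 48 h arrays between -3.55 and -2.57.

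**Figure D3:**
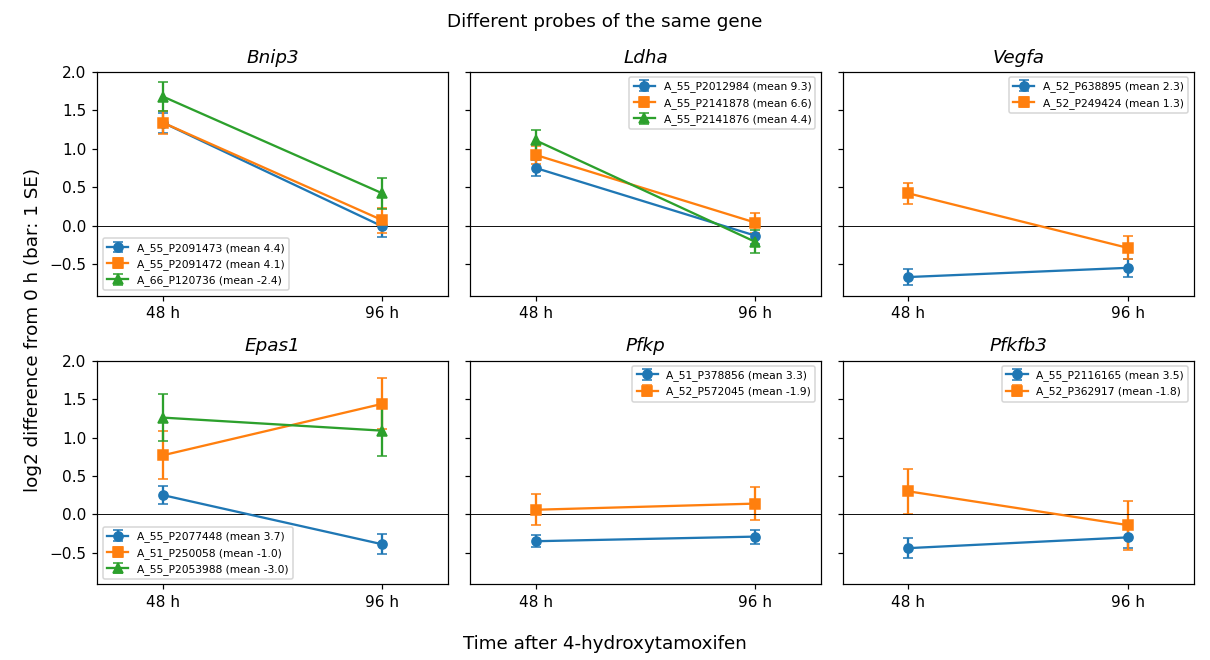
Log2 differences from 0 h with bars of 1 SE for each kept probe of Bnip3, Ldha, Vegfa, Epas1, Pfkp and Pfkfb3, at 48 h and at 96 h. The 3 probes of Bnip3 and of Ldha agree in direction at 48 h, whereas the Vegfa probes lie on opposite sides of 0 (-0.67 and 0.42) and the Epas1 probes spread from 0.25 to 1.26.

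Of the 4 genes of pH control and the endoplasmic reticulum, Car9 rose, Ero1a fell and 2 were not called at 48 h. Car9, a membrane carbonic anhydrase and a classic HIF-1 target, read 1.97, 2.32, 2.09 and 1.97 at 0 h, 3.59, 4.68, 3.55 and 3.51 at 48 h, and 2.17, 2.18 and 2.32 at 96 h. The second 48 h array stood well above the rest, and all 48 h arrays exceeded all others. The rise was 1.74 (SE 0.24, 3.35-fold, adjusted p = 0.00268). Ero1a, the oxidase that drives disulfide formation, read 2.08, 1.49, 1.89 and 2.02 at 0 h, 0.59, 0.52, 0.83 and 0.69 at 48 h, and 1.15, 0.57 and 1.05 at 96 h. Every treated array was below every 0 h array. Ero1a fell 2.32-fold at 48 h (log2 difference -1.21, SE 0.16, adjusted p = 0.00266), although it is listed with the HIF-induced genes. The collagen prolyl hydroxylases P4ha1 (0.07) and P4ha2 (0.42, adjusted p = 0.169) were not called at 48 h, while a dimmer P4ha1 probe rose by 0.72 at 48 h (adjusted p = 0.0126 over all probes) and by 0.71 at 96 h (0.0288).

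Among the remaining regulators, Ankrd37 and Ndrg1 moved furthest. Ankrd37, a hypoxia-induced ankyrin repeat protein, read 0.49, 0.41, -0.18 and -0.32 at 0 h, 2.36, 2.29, 2.34 and 1.77 at 48 h, and 0.27, -0.14 and -0.25 at 96 h. The 48 h arrays were far above the rest and the other times overlapped. The rise of 2.09 (SE 0.22, 4.25-fold, adjusted p = 0.00145) was the greatest of the 40 genes. Ndrg1, a stress-responsive gene induced by HIF in many cells, read 2.55, 2.12, 2.43 and 2.70 at 0 h, 1.62, 0.68, 1.70 and 1.29 at 48 h, and 2.03, 1.53 and 1.17 at 96 h. All treated arrays lay below the 0 h arrays. It fell 2.19-fold at 48 h (log2 difference -1.13, SE 0.25, adjusted p = 0.0152). Kdm3a, a hypoxia-induced histone demethylase outside the floxed family, differed by 0.15, and Bhlhe40, a transcriptional repressor, by 0.07, and neither was called.

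The rise at 48 h was mostly gone at 96 h. Against 0 h, 1 member was higher (Pfkfb4), 2 were lower (Ero1a and Vegfa) and 37 were not called, with a median of -0.03, where 9.55% of all genes were called (6.17% higher, 3.38% lower) and the all-gene median was 0.11. Of the 23 genes that rose at 48 h, 17 lay within 0.25 log2 units of 0 h at 96 h, among them Bnip3 (-0.01), Fam162a (0.09), Ak4 (0.06), Ankrd37 (-0.14) and Car9 (0.14). The 0 h and 96 h arrays did not overlap for 2 members upward and 8 downward (16.4% and 8.69% of all genes, 25.1% together). Ero1a stayed low, with a difference of -0.95 (SE 0.18, adjusted p = 0.0157). The lower calls for Ero1a (0.0511) and Vegfa (0.0748) were lost without 96 h replicate 2, and Vegfa's also without 0 h replicate 3 (0.0508), 0 h replicate 4 (0.0586) or 96 h replicate 3 (0.0631). With the replicate number in the file names as a block, 6 members were called rather than 3: Ndrg1 (-1.03, adjusted p = 0.0237), Bhlhe40 (-0.87, 0.0419) and Epas1 (-0.45, 0.048) were lower as well. This block called 14% of all genes, against 9.55% in the main fit.

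Set directly against 48 h, 21 members were lower at 96 h (52.5%, where 5.95% of all genes were lower, 5.17% higher and 11.1% called) and 0 were higher (limma; 1 at an unadjusted p under 0.05), with a median of -0.55 against 0.03 over all genes. The 48 h and 96 h arrays did not overlap for 1 member upward and 23 downward (14.2% and 13.6% of all genes, 27.9% together). Of the 23 genes that had risen, 18 came down, 10 of them enzyme genes and 8 other HIF genes. Of all 25082 genes tested, 2644 rose at 48 h, and 845 of these were also lower at 96 h than at 48 h (3.37% of all). Both comparisons use the same 48 h arrays, so these calls are not independent. The steepest declines were in Ankrd37 (-2.23, SE 0.24, adjusted p = 0.00262), Car9 (-1.61, SE 0.26, 0.00691), Ak4 (-1.46, 0.01), Aldoc (-1.46, SE 0.28, 0.0118) and Bnip3 (-1.34, SE 0.14, 0.00254). Pgk1 (-1.12), Fam162a (-1.04), Egln3 (-1.01), Slc16a3 (-1.0), Ldha (-0.87), Tpi1 and Mif (-0.85 each), Gapdh (-0.77), Aldoa (-0.73), Eno1 (-0.59), Gpi1 (-0.56), Higd1a (-0.51) and Pdk1 (-0.38) completed the 18. The remaining 5 risers, Pfkl, Pgam1, Pkm (-0.50, adjusted p = 0.073), Pfkfb4 and Bnip3l (-0.10), were not called lower. Slc2a1 (-0.54, adjusted p = 0.0324), Epas1 by its brightest probe (-0.64, 0.0154) and P4ha2 (-0.84, 0.0363) were lower at 96 h than at 48 h without having been called at 48 h. Leaving out 1 array ended the calls for Aldoc (0.0514) and Epas1 (0.0668) where it was 96 h replicate 1. The Tpi1 call was lost without any 1 array other than 0 h replicates 1 and 2 (0.0501 to 0.118), the Slc2a1 call without any 1 array of 48 h replicates 2 to 4 or of 96 h (0.0579 to 0.0973), the Pdk1 call without 0 h replicate 4 or any 1 array of 48 h or 96 h (0.053 to 0.113), and the P4ha2 call without any 1 array of 48 h or 96 h replicates 2 and 3 (0.0526 to 0.118). With the replicate number as a block, the calls for Slc2a1 (0.0602), Pdk1 (0.0688) and P4ha2 (0.0721) were lost too, and Bhlhe40 was lower (-0.94, 0.0367). With quantile normalization, the declines of Gpi1 (-0.11, adjusted p = 0.48), Aldoa (-0.20, 0.311), Gapdh (-0.22, 0.132), Eno1 (-0.30, 0.0809) and Tpi1 (-0.71, 0.0902) were not called.

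Every comparison with 96 h also crosses slides, and neutrophil genes rose over the same interval. Between 48 h and 96 h, 2 of the 5 neutrophil genes (Ltf and Camp) were called higher (40%, where 5.17% of all genes were). The median difference of the 5 was 1.91 (0.09 to 6.29). Against 0 h, Ltf was higher by 6.82 and Camp by 5.70 at 96 h, and Camp by 2.5 at 48 h. The part of the neutrophil genes in the decline of the HIF genes was not tested. No 96 h file carries the number 2, while 0 h replicate 2 was the highest of the 0 h arrays for 12 of the 20 enzyme genes and 48 h replicate 2 the highest of the 48 h arrays for 9 of 20. At 48 h, replicate 3 was close to this, being the highest for 8 of the 20. Of the 20 other HIF genes, 0 h replicate 2 was the highest for 5, 48 h replicate 2 for 10 and 48 h replicate 3 for 8. Without both arrays numbered 2, 29 members were called at 48 h, with Bnip3l lost (0.0714) and Hk1 gained as lower (0.0355). Between 48 h and 96 h 19 were then lower, with Slc2a1, Pdk1 and P4ha2 lost and Pkm gained (0.0307). At 96 h against 0 h the called members went from 3 to 7, with Tpi1 (0.48, adjusted p = 0.0251) and Pkm (0.47, 0.0255) gained as higher and Pfkfb3 (-0.43, 0.0412) and Ndrg1 (-0.98, 0.032) as lower. The share of all genes called in this comparison also went up, from 9.55% to 11.3%. It went from 18.6% to 17.3% at 48 h against 0 h and from 11.1% to 8.08% between 48 h and 96 h.

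The enzyme genes and the other HIF genes both had raised medians at 48 h and medians near 0 at 96 h. At 48 h, 14 of the 20 enzyme genes rose and 2 fell, with differences from -0.44 to 1.39 and a median of 0.58. Of the 20 other genes tested, 9 rose and 4 fell, with differences from -1.21 to 2.09 and a median of 0.41. Relative to the 0 h mean, the median enzyme gene stood at 0.55, 0.58, 0.59 and 0.58 on the 48 h arrays and at -0.07, -0.05 and 0.03 on the 96 h arrays. The median other HIF gene stood at 0.35, 0.54, 0.32 and 0.34 and then at 0.04, -0.12 and -0.07. The enzyme medians were above the other medians on all 4 of the 48 h arrays, while over all genes the 48 h medians were 0.07 to 0.13. The gap was smaller with quantile normalization: the median differences at 48 h of the enzyme and the other genes were 0.37 and 0.38 with quantile normalization, and 0.33 and 0.30 with normexp and quantile normalization or in the authors' deposited table values. Between 48 h and 96 h, 11 enzyme genes (median -0.52) and 10 other genes (median -0.74) were lower. These medians were -0.33 and -0.56 with quantile normalization, -0.19 and -0.40 with normexp and quantile normalization, and -0.19 and -0.41 in the authors' deposited table values. No test of the difference between the sets was made, since the genes were listed with earlier results known.

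**Figure D4:**
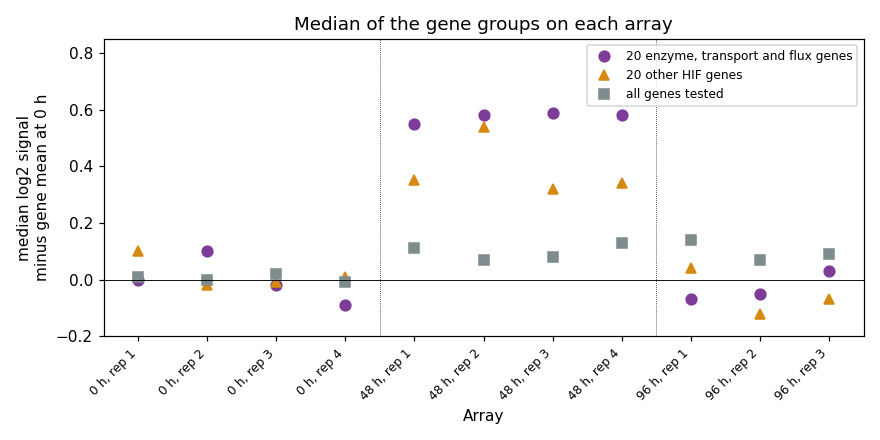
Median, on each array, of the log2 difference from the 0 h mean, over 20 enzyme, transport and flux genes, over 20 other HIF genes and over all genes tested, with 1 position per array along the horizontal axis, ordered by time. The enzyme medians lie between 0.55 and 0.59 at 48 h and between -0.07 and 0.03 at 96 h, and the all-gene medians stay between 0.07 and 0.14 at both.

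Of all genes tested, 10.5% rose and 8.02% fell at 48 h. The shares were 6.17% and 3.38% at 96 h against 0 h, and 5.17% and 5.95% at 96 h against 48 h. Of 15 other glycolytic isoforms tested of 17 listed, 2 rose and 2 fell at 48 h (13.3% each, median 0.38). They were Ldhc, the testis lactate dehydrogenase, up by 1.57 (above background on 1 of 4 arrays at 0 h), Pfkm, the muscle-type phosphofructokinase, up by 0.45, Hk3, the myeloid hexokinase, down (-0.54, adjusted p = 0.0111), and Tigar. At 96 h against 0 h 3 rose and 0 fell, and against 48 h 1 rose and 0 fell (0 lower also at an unadjusted p under 0.05 by limma). Of 16 other transporters and pyruvate dehydrogenase genes, 2 rose (12.5%, Slc16a7 0.98 and Pdp2 0.60) and 3 fell (18.8%), with a median of 0.04. The falls were led by Pdha1, the catalytic subunit's alpha chain (-0.55, adjusted p = 0.00775). In this list 1 was lower at 96 h than at 0 h and 0 were called against 48 h. Of 13 other genes of the HIF machinery, 0 rose and 5 fell at 48 h (38.5%, median -0.20). These falls were led by the ubiquitin ligases Siah1a (-0.87, adjusted p = 0.0428) and Siah2 (-0.55, 0.0123) and the asparaginyl hydroxylase Hif1an (-0.47, 0.0198). At 96 h 1 was lower than at 0 h, and against 48 h 1 was higher and 1 lower.

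Of 23 other hypoxia-induced genes tested of 25 listed, 2 rose and 2 fell at 48 h, with a median of -0.17. This is 8.7% each way, against 10.5% and 8.02% of all genes. Hmox1, haem oxygenase, rose (1.56, SE 0.27, adjusted p = 0.00629) and was lower again at 96 h than at 48 h (-1.31, adjusted p = 0.0204). Rbpj, the Notch pathway transcription factor, fell (-0.63, adjusted p = 0.019). In this list 0 rose and 2 fell at 96 h against 0 h, and 1 rose and 4 fell against 48 h. In the pentose phosphate pathway, 3 of 7 genes rose at 48 h (42.9%, Pgd 0.54, Tkt 0.50 and Rpia 0.37) and 1 fell (14.3%), with 0 called in the comparisons with 96 h. Of 17 genes of the tricarboxylic acid cycle, 0 were called at 48 h or at 96 h against 0 h and 1 was higher at 96 h than at 48 h, with a median at 48 h of -0.01. By limma at an unadjusted p under 0.05, 3 of the cycle's 17 genes at 48 h and 2 at 96 h against 0 h passed, as did 5 of the 7 pentose phosphate genes at 96 h against 0 h and 1 against 48 h. Unadjusted, 2 HIF machinery genes passed as higher at 48 h, 1 hypoxia-induced gene passed as higher at 96 h against 0 h, and 3 transporter and dehydrogenase genes passed at 96 h against 48 h.

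The calls that depended least on the processing were those of the strongest risers. Among the 29 members called at 48 h, 12 were called in all 25 alternatives in which only the data or the fit changed: Aldoc, Tpi1, Pgk1, Slc16a3, Egln3, Bnip3, Fam162a, Ak4, Car9 and Ankrd37 among the risers, and Ero1a and Ndrg1 among those that fell. Of the 21 lower at 96 h than at 48 h, 10 held in all 25, and 8 genes held in both comparisons: Pgk1, Slc16a3, Egln3, Bnip3, Fam162a, Ak4, Car9 and Ankrd37. Of the 3 calls at 96 h against 0 h, 0 held in all 25. No called difference changed sign in any of them. Scaling each array to its median moved the all-gene median at 48 h from 0.12 to -0.10 and left 10 members higher and 6 lower. Median scaling called 9.39% of all genes, against 18.6% in the main fit.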

How the data were processed

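RNA of 11 samples was read on 1-colour (Cy3) Agilent arrays. Per the file headers, the deposited spot intensity comes from Feature Extraction 11.0.1.1 on an mm9 design, with background subtraction and detrending inside each array and no scaling across arrays. Other deposited columns are flags of 0 or 1 per spot. The authors also deposited a table of log2 values, limma being named in the submitters' processing notes. Its columns correlated at 0.999984 with scanner values treated by normexp (offset 50) and quantile normalization, with column medians of 6.17 to 6.19 and no centring of genes.

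Here each processed intensity was put on the log2 scale, less the 75th percentile of its array (59305 non-control spots). Control spots and outlier-flagged spots (125 to 194 per array) were left out, 0 non-control spots were saturated, and spots of a probe were averaged into 55681 probes. Genes were named through unversioned accessions in the RefSeq genes of GRCm38.p6, so that 27656 probes had 1 symbol, 0 had several and 28025 had none. Probes well above background on 3 or more arrays were kept (34274), and the kept probe with the highest mean stood for its gene, so that a gene bright at 1 time passes by that time. Single probes of the members were tested over all kept probes.

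Tests used limma 3.58.1 (lmFit and eBayes, 2-sided) in R 4.3.3 and the data.table package (1.17.8), on all 11 arrays in 3 groups (8 residual degrees of freedom) without a block, with Benjamini-Hochberg adjustment over 25082 genes or features and calls at an adjusted p under 0.05. The script was tested on simulated data. Promoter letters and figures used Python 3.11.15, numpy 2.4.6, pandas 2.3.3 and matplotlib 3.10.9. Deviations from the group means of samples with the same number correlated at 0.14 to 0.28 between 0 h and 48 h. The 0 h array numbered 4 correlated best with a 48 h array of another number. With 96 h the correlations were 0.12 to 0.36 for the numbers in the file names (1, 3 and 4 at 96 h) and -0.04 to 0.36 for those in the titles (1 to 3). Where only the replicate number is named as a block, the file-name numbers were used, as an alternative to the main fit without a block.

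The members and lists were chosen with earlier results of these data known. Values on every array are given for Bnip3, Pgk1, Hif1a, Epas1, Egln1, Egln3 and the called members with the 10 greatest differences in size at 48 h or the 5 greatest between 48 h and 96 h. From each list of other pathway genes, up to 3 called genes with the greatest difference at 48 h are named. Some list genes are not reported here by name. Alternatives were 26: other scalings and normalizations, the deposited table, other filters and probe rules, only the 2 groups compared, array weights, the slide row, 2 blocks, a 1.5-fold minimum, each of the 11 arrays left out, and, chosen after seeing the data, both arrays numbered 2 left out.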

Additional observations from a re-analysis of the deposited data

Results flagged for a closer look

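A sample was set apart where its gap to the nearest of the other arrays of its group, divided by the range of the group, exceeded Dixon's 95% critical value for 4 samples. Chance alone sets apart about 1 in 20 groups, and 8 of 80 groups of 4 arrays were set apart here. The 3 arrays at 96 h are too few for the rule.

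At 0 h, replicate 2 stood high for Tpi1 (6.98 against 5.98 to 6.08 on the others, gap ratio 0.894) and Pkm (6.92 against 6.26 to 6.29, 0.954) and low for Pfkfb3 (3.31 against 3.80 to 3.84, 0.923), and replicate 1 stood low for Higd1a (6.05 against 6.22 to 6.24, 0.897). At 48 h, replicate 2 stood high for Tpi1 (7.68 against 7.23 to 7.29, 0.866), Car9 (4.68 against 3.51 to 3.59, 0.932) and P4ha2 (0.32 against -0.28 to -0.21, 0.873), and replicate 4 stood low for Ankrd37 (1.77 against 2.29 to 2.36, 0.872).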

How the results depend on the processing

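At 48 h against 0 h, where 29 members were called, the count was 26 to 30 with each array left out in turn (30 without 0 h replicate 2, where Hk1 was called lower), 16 with median scaling (10 higher, 6 lower) and 19 with at least a 1.5-fold change (16 higher, 3 lower). The share of all genes called moved as well. It was 18.6% in the main fit, 9.76% to 21.7% with an array left out, 9.39% with median scaling and 10.5% with the fold minimum. Leaving the fold minimum aside, 17 of the 29 calls were lost under some of the other 25 alternatives, 13 of them with median scaling and 7 only there (Gpi1, Pkm, Ldha, Pdk1, Pfkfb4, Higd1a and Mif). At 96 h against 0 h, where 3 members were called, the count was 1 to 6 with an array left out (6 without 0 h replicate 2, 1 without 96 h replicate 2), 7 with median scaling (0 higher, 7 lower), 6 with normexp and quantile normalization and 6 from the deposited table (3 higher and 3 lower in each), 5 with probes above background on all arrays, 7 without both arrays numbered 2, and 0 by limma on only the 2 groups (9 at an unadjusted p under 0.05). Of all genes, 9.55% were called in the main fit here. The share was 2.8% to 13.1% with an array left out (13.1% without 0 h replicate 2, 2.8% without 96 h replicate 2). It was 10.2% with median scaling and 10.6% with normexp and quantile normalization or from the deposited table. It was 14.7% with probes above background on all arrays, 11.3% without both arrays numbered 2 and 1.73% with only the 2 groups. Between 48 h and 96 h, 21 members were called, 16 to 22 with an array left out, 14 with median scaling, 16 with quantile normalization, and 17 (16 lower, 1 higher) with normexp and quantile normalization or from the deposited table. The all-gene share was 11.1% in the main fit, 3.94% to 11.8% with an array left out and 3.67% with median scaling. It was 10.7% with quantile normalization, and 13.5% with normexp and quantile normalization or from the deposited table. The replicate block by file-name numbers called 28, 6 and 19 members in the 3 comparisons (21.4%, 14% and 12.2% of all genes), and the block by title numbers 27, 2 and 17 (15.9%, 5.92% and 6.38%). Beyond the calls given above, the file-name block changed no other call. The enzyme median at 48 h was 0.33 to 0.64 over the alternatives and that of the other HIF genes 0.18 to 0.47. Median scaling moved the all-gene median from 0.11 to -0.28 at 96 h against 0 h and from 0.03 to -0.13 between 48 h and 96 h. Why calls differed between scalings was not tested. Dim probes such as those of Eno2 and Mxi1 limit what could be seen.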
